A study of Mus musculus with 7 samples.

Results

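The AP-1 family was examined in mature white adipocytes of mice with an adipocyte deletion of the short-chain fatty acid receptor FFA2 and of floxed controls. The family was taken as 10 genes by symbol, Fos, Fosb, Fosl1, Fosl2, Jun, Junb, Jund, Atf3, Batf and Batf3, and all 10 were found among the 57010 gene identifiers of the count table. RNA was sequenced from 3 FFA2 fl/fl libraries, made from male littermate controls that carry the floxed allele, and from 4 Adipoq-F2-KO libraries, made from male mice that carry the same floxed allele and a Cre transgene driven by the adiponectin promoter. Both genotypes ate normal chow, and the labels give 20 weeks as the age at collection. Adipocytes were released from perigonadal fat with collagenase, and polyadenylated RNA was sequenced as paired reads of 150 bases. The labels number the samples within a genotype without saying whether animals were pooled, so p-values measure the spread between these libraries. Among these libraries none comes from mice with the Cre transgene but no floxed allele, so effects of the transgene and of the deletion cannot be told apart.

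AP-1 is a transcription factor built from paired basic leucine zipper proteins, in which a FOS or ATF protein joins a JUN protein and the pair binds DNA at the sequence TGACTCA or close relatives of it. Fos, Fosb, Jun, Junb and Atf3 are immediate early genes, which are transcribed within minutes of a stimulus and are also well known to be switched on when tissue is digested into single cells. Fosl1 and Fosl2 encode the FOS-like proteins Fra-1 and Fra-2, which accumulate later and persist longer, Jund is expressed steadily in many cell types, and Batf and Batf3 are best known from lymphocytes and dendritic cells. The comparison asks whether adipocytes lacking FFA2 differ from floxed controls in the early members, the late members, or both.

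The sequence just upstream of an early and a late member is shown because the classes are best known for how quickly their promoters respond. Both are the 250 bases before the RefSeq transcription start on the gene's strand in build GRCm38.p6, at chr12:85473640-85473889 for Fos and chr5:32136222-32136471 for Fosl2, with matches to the searched motifs in capitals.
Fos: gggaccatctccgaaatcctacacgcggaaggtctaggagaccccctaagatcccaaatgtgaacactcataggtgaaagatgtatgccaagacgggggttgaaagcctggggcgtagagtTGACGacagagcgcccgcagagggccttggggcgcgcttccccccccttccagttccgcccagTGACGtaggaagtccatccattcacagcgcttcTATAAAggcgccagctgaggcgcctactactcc
Fosl2: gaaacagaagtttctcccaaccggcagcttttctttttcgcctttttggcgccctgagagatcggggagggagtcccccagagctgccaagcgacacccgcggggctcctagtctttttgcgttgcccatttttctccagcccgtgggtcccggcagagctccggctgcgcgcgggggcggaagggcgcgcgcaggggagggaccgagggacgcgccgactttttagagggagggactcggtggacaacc
The Fos window held TGACG, the core of the cyclic AMP response element, with its first base 129 and 66 bases before the start, and the TATA sequence TATAAA 33 bases before the start. The Fosl2 window held no match to any of the motifs searched. Of the 10 members, 9 had a window in the RefSeq table. Fosl1 had none, so Fosl2 was the only late member covered. Of these 9 windows, 5 (Fos, Fosb, Junb, Atf3 and Batf) held TGACG on either strand, against 17.8% of 32851 windows. The early member Jun was not among them. TATAAA on the gene's strand was found in 1 of 9, against 7.59% of windows. Neither the AP-1 site TGACTCA (4.46% of windows) nor the longer cyclic AMP element TGACGTCA, which contains TGACG (1.55% of windows), was found in a member on either strand, a count of 0 for each.

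Total counts were 33516506 to 39992605 in FFA2 fl/fl and 30478997 to 39725263 in Adipoq-F2-KO libraries. Levels are given as normalized CPM, in which counts are divided by library totals adjusted by TMM factors of 0.968 to 1.02. Low counts were mostly even (85.5% to 88.8% of counts from 1 to 49), as they are when each of the 2 mates of a read pair adds a count. A level of 0 would therefore allow up to 3 fragments, 0.150 to 0.197 CPM, by counting error alone. The targeted gene Ffar2 was at 32.0 to 37.5 normalized CPM in the floxed controls and 1.15 to 2.58 in Adipoq-F2-KO libraries, so no library went against its label. Of 17039 tested genes, edgeR's quasi-likelihood test called 173 at an adjusted p under 0.05, or 1.02%, of which 136 were higher in Adipoq-F2-KO (0.798% of tested genes) and 37 lower (0.217%). That number was 1 without FFA2 fl/fl 1, 41 without FFA2 fl/fl 2, 5 without FFA2 fl/fl 3, 11 without Adipoq-F2-KO 2 and 20 without Adipoq-F2-KO 3. Adipocyte markers were abundant in every library, with the 10 marker genes summing to 42585 to 47802 CPM in the floxed controls and 32771 to 43346 in Adipoq-F2-KO libraries. In bulk RNA, fewer cells of a type and less RNA per cell cannot be told apart. The share of counts from mitochondrial genes was 4.41% to 5.77% in FFA2 fl/fl and 6.61% to 10.3% in Adipoq-F2-KO libraries, without overlap.

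Several AP-1 transcripts were among the most abundant in these libraries. Which cells they came from, and the part of the tissue digestion in their levels, was not tested. The 10 members together took 0.617% to 0.755% of the counts of an FFA2 fl/fl library and 0.575% to 0.671% of an Adipoq-F2-KO library. By mean CPM, Fosb stood 48th, Fos 79th, Jun 84th and Junb 87th among the 17039 tested genes. Atf3 stood 290th, Fosl2 330th, Jund 647th and Fosl1 5657th, whereas Batf and Batf3 stood 13542nd and 14748th.

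Because the genes differ in length, levels were compared between members as normalized CPM per kb of exon, as mean ± SD over all 7 libraries. Fos led with 527 ± 67.7, followed by Junb with 484 ± 60.3, Jun with 366 ± 71.2 and Fosb with 308 ± 30.7. Among these, each range over the libraries overlapped that of the next in order, and the range of Fosb lay above that of Atf3. Atf3 (194 ± 29.3), Jund (133 ± 11.8), Fosl2 (38.2 ± 4.15) and Fosl1 (12.5 ± 5.18) followed in steps whose ranges did not overlap. Batf (0.702 ± 0.313) and Batf3 (0.371 ± 0.214) lay lowest, below Fosl1 without overlap, and overlapped each other.

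**Figure D1:**
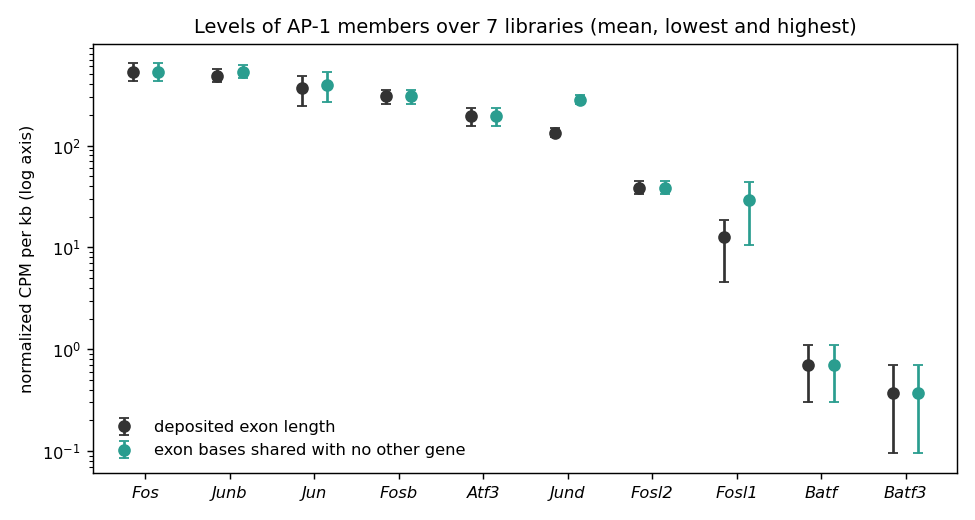
Level of each AP-1 member as normalized CPM per kb on a log axis, with the mean as a point and the lowest and highest of 7 libraries as bars, by the deposited exon length (black) and by the exon bases shared with no other gene (green). Fos, Junb, Jun and Fosb lie together at the top. Jund is at 133 by the deposited length and at 281 by unshared bases, where its range overlaps that of Fosb. Batf and Batf3 lie lowest, with ranges below that of Fosl1.

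The position of Jund and Fosl1 in this order depends on how reads in shared exons were counted. Of 282 genes of at least 200 bases that lie wholly inside exons of the opposite strand, 0 had any count, so reads that met more than 1 gene were left out and strand was not used to separate them. Fosl1 (chromosome 19, 5497575 to 5505974, plus strand, in the table's own coordinates) shares 1163 of its 2033 exon bases, 57.2%, with Ccdc85b on the opposite strand, and only reads in the other 870 bases could be counted for it. Jund shares 877 of 1667 exon bases, 52.6%, with the predicted gene Gm11175, which leaves 790. Junb shares 7.52% of its exon bases with Prdx2 and Jun 7.28% with its antisense gene Junos. Per kb of unshared exon, Jund was at 281, above Atf3, with a range over the libraries that overlapped that of Fosb. Fosl1 was at 29.3 with a range that overlapped that of Fosl2. These lengths apply to both genotypes alike and leave each member's fold change as it was.

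No AP-1 member passed the test between genotypes, with 0 of 10 called in either direction by edgeR against 1.02% of tested genes. At an unadjusted p under 0.05, 4 members were higher in Adipoq-F2-KO (Fosl1, Fosl2, Batf and Batf3) against 10.5% of tested genes, and 0 were lower against 7.37%, or 17.9% in either direction. The same 4 were the members whose genotypes did not overlap, all higher in Adipoq-F2-KO, against 8.86% of tested genes that did so in that direction, 8.72% in the other and 17.6% in either. Of these 4, Batf3 exceeded the low-count filter in 2 of 3 FFA2 fl/fl libraries and in 4 of 4 Adipoq-F2-KO libraries, the group where it was higher. DESeq2 called 2 members higher, Fosl1 and Fosl2, against 5.03% of the 14704 genes to which it gave an adjusted p (6.75% in either direction), and limma voom called 1, Fosl1, against 1.22% in either direction.

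**Figure D2:**
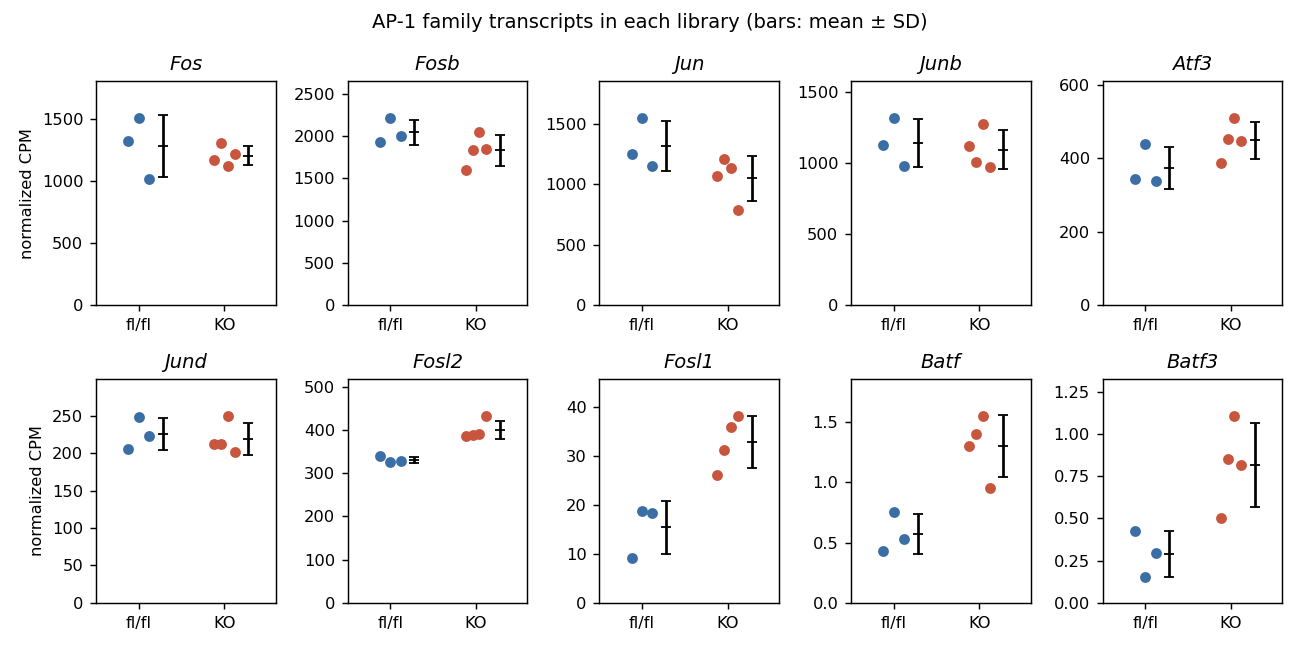
Normalized CPM of each AP-1 member in each library (fl/fl, 3 FFA2 fl/fl libraries; KO, 4 Adipoq-F2-KO libraries), with bars for the mean ± SD beside each group and a linear axis from 0 in every panel. The groups overlap for Fos, Fosb, Jun, Junb, Atf3 and Jund, and every KO point lies above every fl/fl point for Fosl2, Fosl1, Batf and Batf3.

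Among the early members, Fos, the founding FOS gene, was at 1325, 1508 and 1016 normalized CPM in FFA2 fl/fl libraries 1 to 3 and at 1176, 1309, 1124 and 1217 in Adipoq-F2-KO libraries 1 to 4. The knockout values lay wholly inside the control range. The means were 1283 ± 249 (SD, n = 3) and 1207 ± 78.0 (n = 4), and the log2 fold change of knockout over control was -0.09 (SE 0.13, 95% interval -0.37 to 0.19, adjusted p = 0.761). Without FFA2 fl/fl 2, the highest library, the log2 fold change was 0.04.

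Fosb, the close relative of Fos that also gives a truncated, long-lived splice form, was at 1928, 2209 and 2000 in FFA2 fl/fl and at 1603, 1835, 2050 and 1846 in Adipoq-F2-KO libraries. The groups overlapped through Adipoq-F2-KO 3. Its means were 2046 ± 146 and 1833 ± 183, and its log2 fold change was -0.16 (SE 0.10, 95% interval -0.39 to 0.07, adjusted p = 0.460).

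Jun, the most common partner of FOS proteins, was at 1255, 1547 and 1153 in FFA2 fl/fl and at 1068, 1211, 1139 and 788 in Adipoq-F2-KO libraries. Adipoq-F2-KO 4 was the lowest of the 7, and Adipoq-F2-KO 2 lay within the control range. The means were 1319 ± 205 and 1052 ± 185, and the log2 fold change of -0.33 was the lowest of any member (SE 0.15, 95% interval -0.65 to 0.00, adjusted p = 0.283).

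Junb, a JUN protein with weaker activating power than Jun at many sites, was at 1130, 1315 and 981 in FFA2 fl/fl and at 1123, 1006, 1274 and 974 in Adipoq-F2-KO libraries. The ranges nearly coincided, with means of 1142 ± 167 and 1094 ± 136 and a log2 fold change of -0.06 (SE 0.13, 95% interval -0.34 to 0.21, adjusted p = 0.841). Atf3, a stress-induced member that represses many of its targets, was the only early member with a fold change above 0. It was at 343, 440 and 339 in FFA2 fl/fl and at 387, 454, 509 and 449 in Adipoq-F2-KO libraries, where Adipoq-F2-KO 1 lay below FFA2 fl/fl 2. Its log2 fold change was 0.27 (SE 0.12, 95% interval -0.00 to 0.54, adjusted p = 0.286).

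Jund, the steadily expressed JUN gene, was at 206, 249 and 222 in FFA2 fl/fl and at 213, 212, 249 and 202 in Adipoq-F2-KO libraries. Both groups spanned nearly the same values, and the log2 fold change was -0.04 (SE 0.10, 95% interval -0.27 to 0.18, adjusted p = 0.863). Like Fos, Junb and Jund lay just above 0 without FFA2 fl/fl 2, at 0.05 and 0.03.

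Of the late members, Fosl1, which encodes Fra-1, was at 9.27, 18.8 and 18.4 normalized CPM in FFA2 fl/fl libraries 1 to 3 and at 26.2, 31.2, 36.1 and 38.2 in Adipoq-F2-KO libraries 1 to 4. Every knockout library lay above every control, and FFA2 fl/fl 1 was the lowest of the controls, well below the other two. These values rest on 347, 745 and 629 counts in FFA2 fl/fl and 1046, 1027, 1304 and 1126 in Adipoq-F2-KO libraries. The mean was 2.13 times as high in Adipoq-F2-KO, 32.9 ± 5.33 (n = 4) against 15.5 ± 5.39 (n = 3), with an exact two-sided permutation p of 0.0286, the smallest that 3 against 4 libraries can give. Over all genes, edgeR gave a log2 fold change of 1.09 (SE 0.23, 95% interval 0.59 to 1.58) with an adjusted p of 0.0505, just outside the threshold.

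By p-value Fosl1 stood 174th, next after the 173 called genes, and its call turned with the method. DESeq2 gave an adjusted p of 0.000222 and limma voom 0.0376. Leaving out 1 library at a time gave log2 fold changes of 0.82 to 1.25 and adjusted p-values of 0.0472 to 0.196, with a call in 1 of 7 fits, the one without Adipoq-F2-KO 1. The lowest fold change and the highest adjusted p came without FFA2 fl/fl 1. Ccdc85b, the gene that overlaps Fosl1, was at 41.9, 63.2 and 57.8 normalized CPM in the floxed controls and 63.4, 58.2, 74.6 and 61.7 in Adipoq-F2-KO libraries, and its log2 fold change was 0.25 (adjusted p = 0.385).

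Fosl2, which encodes Fra-2 (chromosome 5, 32293145 to 32315186, plus strand, in the table's own coordinates), was at 339, 325 and 328 in FFA2 fl/fl and at 387, 389, 391 and 432 in Adipoq-F2-KO libraries. The groups did not overlap, and within each genotype the libraries lay close together apart from Adipoq-F2-KO 4. The mean was 1.21 times as high in Adipoq-F2-KO, 400 ± 21.6 (n = 4) against 331 ± 7.56 (n = 3), with an exact two-sided permutation p of 0.0286. The log2 fold change was 0.27 (SE 0.08, 95% interval 0.09 to 0.46), with an adjusted p of 0.134 by edgeR, 0.116 by limma voom and 0.0163 by DESeq2. It stayed between 0.23 and 0.29 when any 1 library was left out.

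The BATF members lay near the limit of detection. Batf was at 0.427, 0.756 and 0.527 normalized CPM in the floxed controls and at 1.30, 1.40, 1.55 and 0.950 in Adipoq-F2-KO libraries, from 16 to 30 and 28 to 56 counts. The groups did not overlap, and the log2 fold change was 1.18 (SE 0.47, 95% interval 0.15 to 2.21, adjusted p = 0.222, exact permutation p = 0.0571). Batf3 was at 0.427, 0.151 and 0.293 in FFA2 fl/fl and at 0.502, 0.851, 1.11 and 0.814 in Adipoq-F2-KO libraries, and FFA2 fl/fl 2 held 6 counts, the 3 fragments of the detection limit. Its log2 fold change was 1.48 (SE 0.64, 95% interval 0.08 to 2.89, adjusted p = 0.257, exact permutation p = 0.0571), and DESeq2 gave it no adjusted p. The other 9 members exceeded the low-count filter of 0.274 CPM in all 7 libraries, whereas Batf3 did so in 2 of 3 FFA2 fl/fl and 4 of 4 Adipoq-F2-KO libraries.

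**Figure D3:**
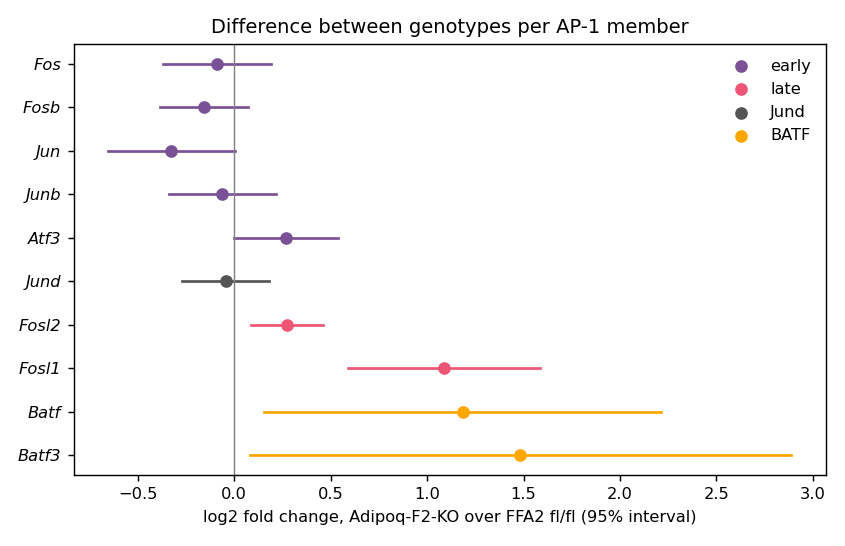
Log2 fold change of Adipoq-F2-KO over FFA2 fl/fl for each member, as points with 95% intervals from edgeR's fit, coloured by class. Early members lie between -0.33 and 0.27 with intervals that reach 0, and the intervals of Fosl2, Fosl1, Batf and Batf3 lie above 0 before adjustment for 17039 tested genes.

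Set side by side, early and late members had different values in the same comparison. The 5 early members had a median log2 fold change of -0.09, with 4 below 0 and 1 above. The 2 late members were at 0.27 and 1.09, and their median was 0.68. All 10 members had a median of 0.11, with 5 above and 5 below 0, and the median over all tested genes was 0.00, with 50.4% above 0. These medians carry no test, since the genes were chosen with earlier results of these data known and the members share the same libraries.

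Late members were also set against the FOS family total in each library. Fosl1 made up 0.257%, 0.462% and 0.548% of the counts of Fos, Fosb, Fosl1 and Fosl2 in FFA2 fl/fl libraries 1 to 3 and 0.822%, 0.875%, 1.00% and 1.08% in Adipoq-F2-KO libraries 1 to 4. The highest control (Wilson 95% interval 0.491% to 0.612%) and the lowest knockout (0.755% to 0.895%) were separated by more than counting error. These intervals do not cover the spread between libraries. The shares, and the ratios that follow, reuse the Fosl1 and Fosl2 counts given above, whose genotypes did not overlap, and so are not separate support. Fosl1 and Fosl2 together made up 9.68%, 8.47% and 10.3% in FFA2 fl/fl and 12.9%, 11.8%, 11.9% and 13.3% in Adipoq-F2-KO libraries, again without overlap. Per kb of exon, the ratio of Fos to Fosl1 was 47.7 to 124 in FFA2 fl/fl and 26.9 to 38.7 in Adipoq-F2-KO libraries. By the bases of Fosl1 that could be counted, this ratio was 20.4 to 52.9 and 11.5 to 16.6. The ratio of Fosb to Fosl2 was 8.81 to 10.5 in controls and 6.42 to 8.13 in knockouts, whereas that of Fos to Fosl2 overlapped, at 12.8 to 19.1 and 11.6 to 13.9. In every library the early gene of each of these pairs had the higher level per kb.

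**Figure D4:**
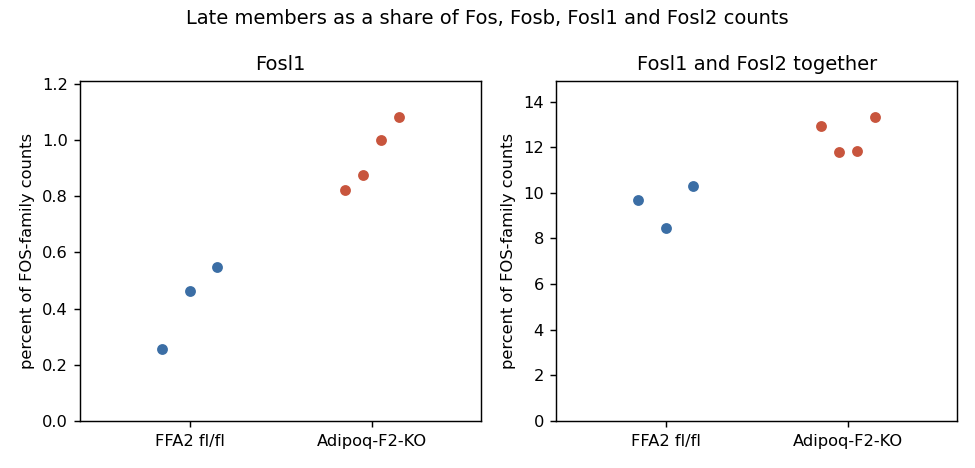
Counts of Fosl1 (left) and of Fosl1 and Fosl2 together (right) as a percent of all Fos, Fosb, Fosl1 and Fosl2 counts, with 1 point per library in replicate order and axes from 0. The 4 Adipoq-F2-KO libraries lie above the 3 FFA2 fl/fl libraries in both panels, from 0.822% against at most 0.548% on the left and from 11.8% against at most 10.3% on the right.

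Other cell types in the adipocyte fraction were followed by marker lists. Macrophage markers summed to 603 to 721 CPM in the floxed controls and 789 to 972 in Adipoq-F2-KO libraries, with 12 of 15 genes above 0 in log2 fold change (50.4% of tested genes) and 2 called higher (0.798% of tested genes), Cd68 at 0.72 and Lyz2 at 0.69. Dendritic cell markers summed to 48.7 to 75.8 and 77.8 to 94.3 CPM, with 8 of 9 tested genes above 0, and fibroblast progenitor markers to 816 to 1092 and 1160 to 1352 CPM, with 7 of 8 above 0. Endothelial markers summed to 859 to 1177 and 1176 to 2001 CPM, with 8 of 8 above 0. At an unadjusted p under 0.05, 9 macrophage, 3 dendritic cell, 3 fibroblast progenitor and 6 endothelial markers were higher (10.5% of tested genes). In that test 1 macrophage marker was lower (7.37% of tested genes). In the same order of lists DESeq2 called 7, 1, 0 and 3 markers higher (5.03% of its genes) and 0 lower. All 10 adipocyte markers were below 0, with 0 called by edgeR and 5 lower at an unadjusted p under 0.05 (7.37% of tested genes). DESeq2 called 2 of them lower. Over the whole table it called 253 genes lower, of the 14704 to which it gave an adjusted p.
Lymphocyte and granulocyte markers were low in both genotypes. T cell markers summed to 2.94 to 9.68 CPM in the floxed controls and 3.22 to 6.58 in Adipoq-F2-KO libraries, B cell markers to 0.908 to 23.2 and 1.43 to 12.1, and neutrophil markers to 2.55 to 3.95 and 2.46 to 5.01, with Ly6g at 0 in all 7 libraries. Mesothelial markers summed to 9.87 to 25.9 and 7.52 to 11.0 CPM. The part of macrophage, dendritic, fibroblast and endothelial RNA and of the mitochondrial share in the values of Fosl1, Fosl2, Batf and Batf3 was not tested.

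Around the family, the genes known as AP-1 targets held the called genes. Of 26 listed genes 22 were tested, and 7 of these rose in Adipoq-F2-KO against 0.798% of all tested genes, while 0 fell. Their median log2 fold change was 0.85, with 19 above and 3 below 0, beside 0.00 for all tested genes. The list holds inflammatory genes that earlier results of these data had already shown to be higher, so its count is not independent of them. Several of its genes are also well known from macrophages, whose marker sums are given above, and the part of macrophage RNA in these values was not tested.
The 7 genes were the inflammatory cytokines Tnf and Il6, the monocyte chemokine Ccl2, the urokinase Plau, the hyaluronan receptor Cd44, the chromatin protein Hmga1 and the sphingosine kinase Sphk1. Tnf was at 14.4 ± 2.16 normalized CPM in the floxed controls and 45.0 ± 13.8 in Adipoq-F2-KO, a log2 fold change of 1.65 (adjusted p = 0.0192). Il6 was at 24.2 ± 6.19 and 67.2 ± 19.1 (1.47, adjusted p = 0.0332), and Ccl2 at a mean of 167 (152 to 192 over the libraries) and 367 (289.9 to 403), a difference of 1.14 on the log2 scale (adjusted p = 0.0178). Plau was at 26.0 ± 2.43 and 58.5 ± 24.2 (1.17, adjusted p = 0.04995, at the edge of the threshold). Cd44 was at 15.5 ± 3.04 and 31.4 ± 5.92 (1.02, adjusted p = 0.0332), Hmga1 at 32.5 ± 5.24 and 59.3 ± 10.1 (0.87, adjusted p = 0.0379) and Sphk1 at 11.6 ± 1.66 and 20.1 ± 2.46 (0.80, adjusted p = 0.0382). The abundant angiogenic factor Vegfa was not among the 7. It was at 453 ± 31.0 and 432 ± 154 (-0.07, adjusted p = 0.910).
The number called in this list changed with single libraries. It was 0 without FFA2 fl/fl 1 or FFA2 fl/fl 3, 4 without FFA2 fl/fl 2, and 2 without Adipoq-F2-KO 2 or Adipoq-F2-KO 3. With all libraries DESeq2 called 11 higher, against 5.03% of its genes.

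The other immediate early and dissociation-induced genes held no called gene. Of 25 genes, 0 were called in either direction by edgeR, against 1.02% of tested genes. At an unadjusted p under 0.05, 9 were higher and 1 was lower, against 10.5% and 7.37% of tested genes. Their median log2 fold change was 0.20, with 19 above and 6 below 0. The zinc finger factor Egr1, the most abundant of them, was at 3303 ± 265 normalized CPM in the floxed controls and 3307 ± 385 in Adipoq-F2-KO, and the mRNA decay factor Zfp36 was at 1467 ± 205 and 1511 ± 98.0. DESeq2 called 1 gene higher and 1 lower, against 6.75% of its genes in either direction, named here after their values were seen. Nr4a2, an orphan nuclear receptor, had a log2 fold change of 0.72, and Klf2, a Krüppel-like factor, had -0.54 (edgeR adjusted p = 0.167 and 0.0786).

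Of the MAP kinases and promoter factors upstream of AP-1, 28 of 29 genes were tested. By edgeR 0 were called in either direction, against 1.02% of tested genes. At an unadjusted p under 0.05, 8 were higher and 2 lower, against 10.5% and 7.37% of tested genes. The median log2 fold change was 0.04, with 16 above and 12 below 0. Mapk3, which encodes the kinase ERK1, was at 136 ± 5.28 normalized CPM in the floxed controls and 135 ± 2.30 in Adipoq-F2-KO, and the transcription factor gene Mef2d was at 88.7 ± 3.03 and 103 ± 11.9. DESeq2 called 3 higher, against 5.03% of its genes, named here after their values were seen, namely the kinase gene Map3k8 with a log2 fold change of 0.65, Mef2a with 0.52 and Mef2c with 1.03. The MEF2 genes encode factors that bind the Jun promoter.
Of 11 other AP-1-related leucine zipper genes, 10 were tested and Nrl was listed at 0 in all 7 libraries. By edgeR and by DESeq2 0 were called, against 1.02% and 6.75% of their genes in either direction. At an unadjusted p under 0.05, 3 were higher, against 10.5% of tested genes (among them Maf at 0.39 and Mafk at 0.31). The median of the 10 was 0.27, with 9 above 0. Maff, a small MAF gene and the most abundant of them, was at 134 ± 8.45 and 164 ± 36.8 normalized CPM.

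**Figure D5:**
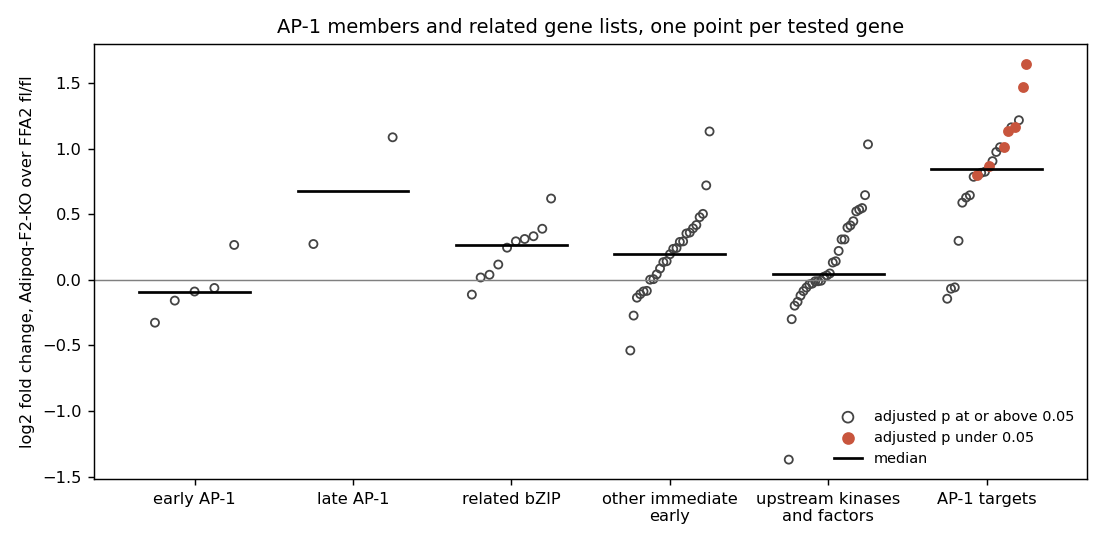
Log2 fold change of Adipoq-F2-KO over FFA2 fl/fl for every tested gene of the early and late AP-1 members and of the related lists, with 1 point per gene, the list's median as a line and genes called by edgeR filled. Filled points occur only among the AP-1 targets, 7 of 22, the lone low point at -1.37 is Mapk13, and the Jund and BATF members are not drawn.

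The genes whose levels most closely followed Fos, Fosl1 and Fosl2 are given as a description of the libraries. Over the 7 libraries and 13507 genes averaging at least 1 CPM, log2 CPM of Fos was most like that of Sgf29 (Pearson r = 0.967, Spearman rho = 0.929), Apool (r = 0.960), Arhgap29 (r = 0.960), Syt3 (r = 0.947) and Hdhd3 (r = 0.947). Fosl1 was most like Procr (r = 0.989, rho = 1), Rhoj (r = 0.986), Vcam1 (r = 0.982), Slc22a5 (r = 0.980) and Bcor (r = 0.979). Fosl2 was most like Dbf4 (r = 0.989, rho = 1), Larp4 (r = 0.984), Ptpro (r = 0.984), Rasgrp4 (r = 0.984) and Cdk18 (r = 0.982). The 7 points share the genotype difference and the library, and no link between the genes is drawn from them.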

How the data were processed

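The authors used Trimmomatic for trimming, STAR for alignment and featureCounts for read counts per gene. The deposited values are whole-number counts without normalization for 7 libraries, 3 FFA2 fl/fl and 4 Adipoq-F2-KO, beside coordinates and exon length. Counting options and versions are not given in the sources used here. The submitters' notes name GRCm38, but 0 of 10 members and 1446 of 52029 matched genes had the coordinates of that build's GENCODE annotation, so coordinates are those of the table, and only RefSeq upstream windows are on GRCm38.p6. Symbols were matched for 52029 of 57010 identifiers. In R 4.3.3, edgeR 4.0.16 was run with filterByExpr, TMM, glmQLFit and glmQLFTest on genotype alone, two-sided, with Benjamini-Hochberg adjustment over 17039 genes. DESeq2 1.42.0, the tool of the study, and voom of limma 3.58.1 were run on the genes passing that filter. The scripts were tested on simulated data. Levels of single genes were compared with exact two-sided permutation tests. All 7 libraries were kept, since replicates differed beyond sampling noise (ratio of chi-square to its degrees of freedom 41.5 to 165).

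The members and lists were chosen with earlier results of these data known. Named are all members, Ffar2, the called genes and the 2 or 3 most abundant genes of each related list, and the 5 genes most like Fos, Fosl1 and Fosl2 by Pearson r of log2 CPM (prior count 2). Some genes of the related lists are not reported here by name. Other scalings, filters, tools, omitted libraries and a replicate block were tried as alternatives. The exon length without shared bases, and the alternatives for the related lists, were added after seeing the data. Wilson intervals and detection limits cover counting error only.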

Additional observations from a re-analysis of the deposited data

Results flagged for a closer look

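Of the 10 members, checked in the 4 Adipoq-F2-KO libraries for a single library far from the rest, Fosl2 stood out. Adipoq-F2-KO 4 was at 432 normalized CPM and the other three libraries at 387 to 391, so the gap took 0.910 of the range, above Dixon's critical value for 4 samples. Chance marks about 1 in 20 groups in this way, and 10 genes were checked. Without that library the log2 fold change of Fosl2 was 0.23 (adjusted p = 0.173).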

How the results depend on the processing

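The number of AP-1 members called higher was 0 by edgeR, 2 by DESeq2, and 1 each (Fosl1) with limma voom, with library totals alone, with a filter of at least 1 count, with a filter of a mean of 1 CPM and with a replicate block. It was 0 to 1 over the fits without 1 library, and the number called lower was 0 under all 14 alternatives. For Fosl1 the adjusted p was 0.0503 with RLE normalization, 0.0426 with library totals alone, 1.2e-08 with a filter of at least 1 count, 0.0485 with a filter of a mean of 1 CPM and 0.0192 with the block. Without FFA2 fl/fl 2 the log2 fold changes of Fos, Junb and Jund were reversed. Over the fits without 1 library they ranged from -0.22 to 0.042 for Fos, -0.15 to 0.051 for Junb and -0.11 to 0.030 for Jund. No other member changed sign under an alternative in which it was tested. The number of genes called over the whole table, 173, became 992 with DESeq2, 1403 with a filter of at least 1 count and 1 to 178 without 1 library. For the AP-1 targets, 7 became 11 with DESeq2, 14 with the filter of at least 1 count and 0 to 8 without 1 library. For the other immediate early genes, 0 became 2 with DESeq2, 6 with the filter of at least 1 count and 0 to 1 without 1 library. For the upstream kinases and factors, 0 became 3 with DESeq2, 1 with limma voom, 6 with the filter of at least 1 count, 1 with the block and 0 to 1 without 1 library. By unshared exon bases the level per kb was 281 for Jund and 29.3 for Fosl1. The cause of these shifts was not tested. Deviations from the genotype mean had correlations of 0.0315, -0.0242 and -0.0203 between libraries with the same replicate number. Between libraries with different numbers they ran from -0.0957 to 0.0861. So few pairs cannot decide whether the numbers pair the samples, and the labels do not say. With the block 224 genes were called, 130 of them shared with the 173. Batf and Batf3 rest on the fewest counts of the members, 6 to 56 per library.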

Other observations

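Both BATF members lie on the same chromosome as an early member, and genes between them were not examined. In the table's coordinates Fos and Batf are 209395 bases apart on chromosome 12, and Atf3 and Batf3 are 61350 bases apart on chromosome 1. Within each pair the log2 fold changes were -0.09 for Fos and 1.18 for Batf, and 0.27 for Atf3 and 1.48 for Batf3, none of them past the threshold, and the difference within a pair was not tested.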
